A study of Mus musculus with 78 samples.

Results

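The 8 genes described here sense flow in the vessel wall or depend on it. They are Piezo1, Trpv4, P2rx4, Pkd1, Pkd2, Kcnj2, Aqp1 and Plxnd1. They were listed by name, with earlier results of these data known. Each was read from probe sets annotated to its symbol alone, taking the probe set with the highest mean over all 78 arrays. Of the 8 genes, 7 had such a probe set among 17097 named genes and 6 passed the filter on low values, a signal above the array median on at least 4 arrays, that left 11344 genes for testing. Pkd2 is not analysed here, and Kcnj2 lay above the array median on only 3 of 78 arrays, so it was not tested.

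The arrays come from 39 mice whose left common carotid artery (LCA) was partially ligated, an operation that lowers and disturbs blood flow in that vessel. The right common carotid artery (RCA) of the same mouse is the control. Mice received vehicle or the statin atorvastatin by mouth every day at 10 mg per kg body weight, starting 2 days before surgery. RNA was taken from both arteries at 12 h, 24 h, 48 h or 2 weeks, with 5 mice at each time and treatment except 4 under atorvastatin at 48 h. All mice, vehicle mice included, had the operation. The labels read here state no strain, age or sex. Mice are numbered within each time, 1 to 5 for vehicle and 6 to 10 for atorvastatin, so that mouse 1 at 12 h and mouse 1 at 24 h are different animals. RNA was flushed from the vessel lumen with Qiazol, a lysis reagent, and is enriched in endothelium rather than pure. In such bulk RNA, fewer cells of a type and less RNA per cell cannot be told apart.

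Endothelial cells sense the drag of flowing blood through membrane proteins that open or signal under force. Piezo1 is a mechanically gated cation channel, Trpv4 a calcium-permeable cation channel, and P2rx4 a calcium-permeable channel opened by the ATP that endothelium releases under flow. Polycystin-1 (Pkd1) and polycystin-2 (Pkd2) form a receptor and channel pair found on primary cilia, Kcnj2 encodes the inward-rectifier potassium channel Kir2.1, and plexin D1 (Plxnd1) is a semaphorin receptor that also responds to force. Aqp1, a water channel of endothelium and red blood cells, is a gene whose expression depends on flow rather than a sensor. Other genes serve as reference points: Klf2 and Klf4 are transcription factors that steady flow induces, and Nos3 encodes the endothelial nitric oxide synthase.

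The start regions of Aqp1, Trpv4 and Pkd1 are shown first, since these 3 genes were lower in the ligated artery at 2 weeks in both treatments. Each run is the 250 bases before a RefSeq transcript start (build GRCm38.p6), at chr6:55336049-55336298 on the plus strand for Aqp1, chr5:114658422-114658671 on the minus strand for Trpv4 and chr17:24549700-24549949 on the plus strand for Pkd1. Capitals mark CACCC, the core letters of sites bound by Krüppel-like factors, or GAGACC, a shear stress response element, on either strand.
Aqp1: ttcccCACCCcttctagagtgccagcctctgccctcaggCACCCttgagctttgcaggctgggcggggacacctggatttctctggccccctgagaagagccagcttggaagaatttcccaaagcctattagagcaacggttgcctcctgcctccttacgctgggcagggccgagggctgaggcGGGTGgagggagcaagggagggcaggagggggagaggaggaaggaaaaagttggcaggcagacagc
Trpv4: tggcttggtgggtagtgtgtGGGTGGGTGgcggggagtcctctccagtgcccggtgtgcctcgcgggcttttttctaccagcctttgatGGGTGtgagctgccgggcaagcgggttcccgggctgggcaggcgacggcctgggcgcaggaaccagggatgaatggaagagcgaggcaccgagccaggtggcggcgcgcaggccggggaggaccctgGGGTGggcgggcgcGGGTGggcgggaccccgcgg
Pkd1: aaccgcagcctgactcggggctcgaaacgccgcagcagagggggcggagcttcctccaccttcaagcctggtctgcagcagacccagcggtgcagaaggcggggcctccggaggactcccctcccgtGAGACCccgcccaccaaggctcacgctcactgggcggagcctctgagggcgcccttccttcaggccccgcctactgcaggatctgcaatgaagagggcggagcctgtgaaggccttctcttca

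The runs hold 3 matches to CACCC in Aqp1, 5 in Trpv4, of which a pair shares 1 base, and 0 in Pkd1, which has 1 match to GAGACC. For comparison, 52% of 32851 mouse start regions of the same length hold CACCC and 13.7% hold GAGACC. The other members held 1 CACCC and 1 GAGACC (Piezo1), 2 CACCC (P2rx4), 1 CACCC (Pkd2 and Kcnj2 each) and no match (Plxnd1). TGANTCA, the AP-1 motif, was found in none of the 8 and in 6.75% of all. The runs of Pkd1, Pkd2 and Plxnd1 lie wholly inside the spans given below for these genes, and those of Trpv4 and P2rx4 reach partly into theirs. The counts of all these genes therefore belong to an internal transcript start, not to the outermost one. A match is a description of these letters, and binding was not measured. In the same build, the genes lie on chromosome 6 at 55336299 to 55348555 (Aqp1) and 115954811 to 115995339 (Plxnd1), on chromosome 17 at 24548689 to 24596514 (Pkd1), on chromosome 8 at 122481698 to 122551329 (Piezo1) and on chromosome 11 at 111066164 to 111076825 (Kcnj2). Chromosome 5 holds Pkd2 at 104453982 to 104505819, Trpv4 at 114622152 to 114658435 and P2rx4 at 122707518 to 122729739.

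Marker lists were read in every array. The 14 endothelial markers averaged 9.02 to 10.08 log2 units on all 78 arrays, and at least 12 of them lay above the array median on all arrays of each group. The mean LCA minus RCA difference of the list ran from -0.54 to -0.04 over the 8 groups of mice. At 48 h, 7 of 14 were called lower and 2 higher with vehicle and 9 and 2 with atorvastatin, and at 2 weeks 6 and 3, and 7 and 3. The 12 macrophage markers averaged 0.86 to 3.56 higher in the LCA of each mouse at 48 h and 2.61 to 4.85 higher at 2 weeks, while their RCA level was 3.46 to 5.92 at 2 weeks, and all 12 were called higher at 2 weeks in both treatments, after 8 with vehicle and 10 with atorvastatin at 48 h. The 5 neutrophil markers were 1.30 to 5.66 higher at 48 h in all mice but vehicle mouse 4, which read -0.14. The 8 smooth muscle markers were 2.18 to 3.65 higher at 2 weeks in all mice but vehicle mouse 2, which read -0.24. The 9 fibroblast markers differed by -1.54 to 0.34 between the arteries of each mouse at 48 h with vehicle (mean -0.79). With atorvastatin they differed by -1.31 to 0.55 (mean -0.34). Of the 9, 3 were called lower at 48 h with vehicle and 2 with atorvastatin, and 0 higher. RNA quality was read as the Gapdh 3' minus 5' probe difference (log2, SD, n = 5, or 4 under atorvastatin at 48 h). In vehicle mice it was 4.82 ± 0.30 for LCA against 4.74 ± 0.31 for RCA arrays at 12 h, 4.97 ± 0.47 against 4.04 ± 0.24 at 24 h, 3.95 ± 0.42 against 4.33 ± 0.20 at 48 h and 4.0 ± 0.46 against 3.80 ± 0.28 at 2 weeks. In atorvastatin mice it was 4.87 ± 0.81 against 4.21 ± 0.21, 4.56 ± 0.29 against 4.10 ± 0.20, 3.97 ± 0.24 against 3.81 ± 0.48 and 3.98 ± 0.34 against 3.96 ± 0.33. The LCA value was thus lower at 48 h than at 24 h in both treatments. The part of these shifts in the results on the members was not tested.

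All values are log2 expression, and "called" means an adjusted p below 0.05 in limma's moderated test of LCA minus RCA over mice, adjusted by Benjamini-Hochberg over 11344 genes. At 12 h none of the 6 tested members was called in vehicle or atorvastatin mice, where 1.08% and 0.926% of all genes were called lower and 1.31% and 0.758% higher. At an unadjusted p below 0.05 there were 2 and 1 members and 1500 and 1300 genes. At 24 h, 1 of 6 was lower in each treatment, Trpv4, against 7.09% of all genes lower and 7.19% higher with vehicle and 5.8% and 7.29% with atorvastatin. At 48 h, 3 of 6 were lower with vehicle (Aqp1, Pkd1, P2rx4) and 3 of 6 with atorvastatin (Aqp1, Pkd1, Trpv4), against 15.4% and 15.2% of all genes lower and 20.8% and 16.6% higher. At 2 weeks Aqp1, Pkd1 and Trpv4 were lower in both treatments, against 12.3% and 15.4% lower and 15.5% and 14.5% higher. No member was called higher at any of these 8 comparisons. The median member difference was -0.54 with vehicle and -0.60 with atorvastatin at 48 h, where the median of all tested genes was 0.01 and -0.01.

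**Figure D1:**
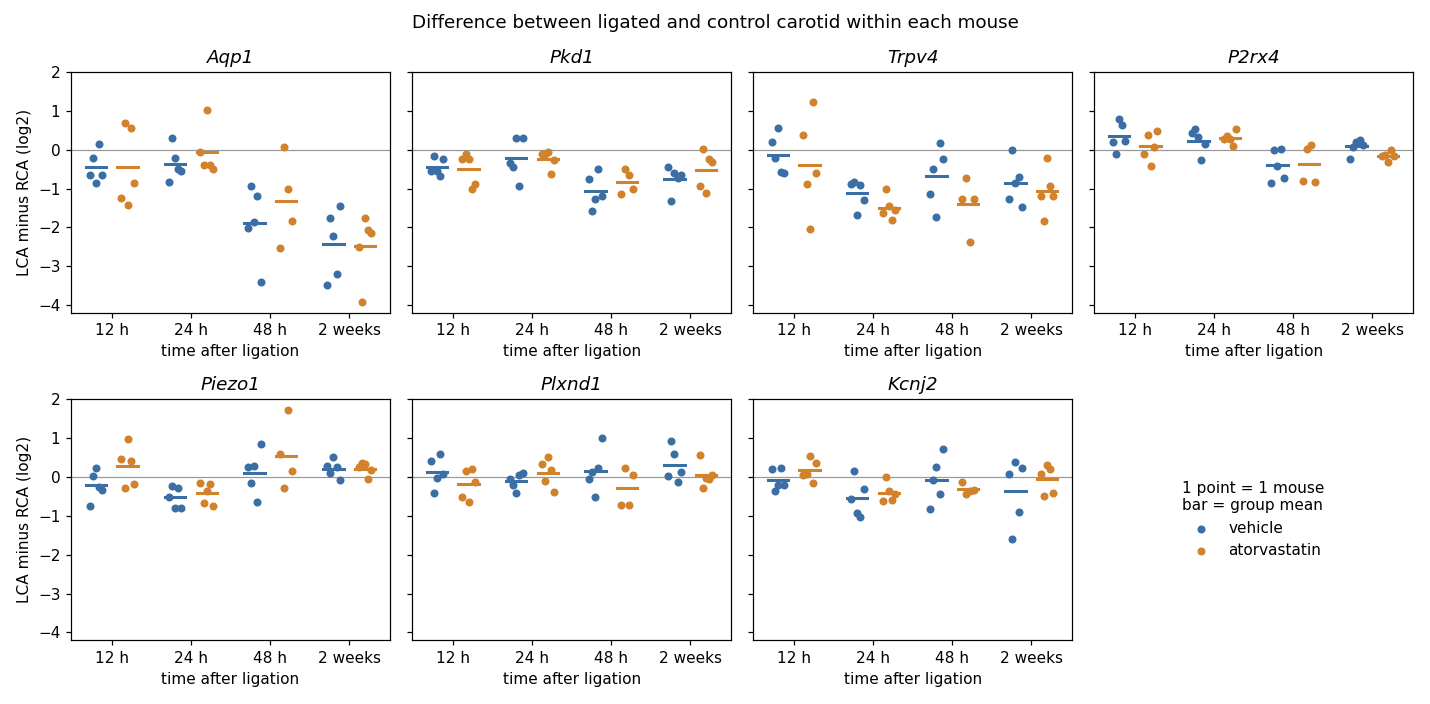
LCA minus RCA (log2) for each mouse, by time after ligation, for the 7 members with a probe set; points are mice, bars group means, blue vehicle and orange atorvastatin. Aqp1 lies at means of -0.36 and -0.06 at 24 h and of -2.42 and -2.48 at 2 weeks, Pkd1 is lowest at 48 h, Trpv4 is below 0 in all 10 mice at 24 h, Piezo1 is below 0 in all 10 mice at 24 h and at means of 0.12 and 0.54 at 48 h, and the group means of Plxnd1 run from -0.29 to 0.31 and those of Kcnj2 from -0.54 to 0.17.

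Aqp1, the water channel, showed the widest difference. At 12 h the vehicle LCA read 9.67, 9.66, 8.62, 9.19 and 10.51 in mice 1 to 5, beside 10.31, 9.87, 9.47, 9.06 and 11.16 in the RCA. At 48 h the LCA values were 8.0, 9.98, 8.84, 9.29 and 6.61, and the RCA values 10.02, 10.91, 10.71, 10.48 and 10.02. At 2 weeks they were 6.90, 8.77, 8.17, 7.33 and 8.90 in the LCA and 10.39, 10.53, 10.38, 10.52 and 10.35 in the RCA. The arteries overlapped at 12 h and did not overlap at 48 h or 2 weeks, where all 5 mice were lower on the ligated side. The RCA level at 2 weeks was 10.44 ± 0.09 (SD, n = 5), and the LCA level 8.01 ± 0.88. How many of all genes showed no overlap between the arteries, or between times, was not counted. P2rx4 also showed none at 2 weeks with atorvastatin, with all 5 mice lower in the LCA. Its difference there was -0.16 ± 0.15 and was not called (adjusted p = 0.474 by limma).

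The Aqp1 difference in vehicle mice was -0.44 ± 0.35 at 12 h (SE of the fit, n = 5, adjusted p = 0.648 by limma), -0.36 ± 0.35 at 24 h (adjusted p = 0.54), -1.88 ± 0.35 at 48 h (adjusted p = 8.3e-05) and -2.42 ± 0.35 at 2 weeks (adjusted p = 1.28e-06). These are 3.69-fold lower levels at 48 h and 5.37-fold lower at 2 weeks. The calls at 48 h and 2 weeks held without each of the 5 mice in turn. The change between 24 h and 48 h was -1.52 ± 0.49 (adjusted p = 0.0209 by limma), and it was -1.14 (adjusted p = 0.108) without mouse 5 at 48 h and -1.35 (adjusted p = 0.0579) without mouse 2 at 24 h. With the number in the sample titles as a fixed block its adjusted p was 0.0504. It lay in the ligated artery, whose own level changed by -1.50 ± 0.47 (adjusted p = 0.0144; -1.02 and 0.0882 without mouse 5 at 48 h, and -1.66 and 0.058 with the title number as a block). The RCA changed by 0.02 ± 0.32 over the same step.

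In atorvastatin mice Aqp1 was also lower in the LCA at 48 h and 2 weeks. At 24 h the LCA read 10.46, 10.03, 10.58, 10.86 and 9.99 in mice 6 to 10 and the RCA 10.54, 10.42, 9.54, 11.24 and 10.49, with mouse 8 alone higher on the ligated side. At 48 h the 4 LCA values were 7.40, 9.82, 8.77 and 8.67 in mice 6 to 9, beside 9.95, 9.76, 9.79 and 10.51. Mouse 7 showed no drop, and the arteries overlapped through it. At 2 weeks the LCA read 8.22, 6.62, 7.64, 8.16 and 8.44 and the RCA 10.73, 10.53, 9.40, 10.24 and 10.58, without overlap. The difference was -0.45 ± 0.35 at 12 h, -0.06 ± 0.35 at 24 h, -1.33 ± 0.39 at 48 h (n = 4, adjusted p = 0.00867 by limma) and -2.48 ± 0.35 at 2 weeks (n = 5, adjusted p = 7.36e-07), the last a 5.58-fold lower level. From 24 h to 48 h the difference moved by -1.27 ± 0.52 (adjusted p = 0.0725; -1.74 and 0.0134 without mouse 7 at 48 h) and the LCA level by -1.72 ± 0.50 (adjusted p = 0.011; -1.30 and 0.083 without mouse 6 at 48 h).

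The 48 h call under atorvastatin rested on few mice. Without mouse 6 it was -0.93 (adjusted p = 0.137 by limma), without mouse 9 -1.17 (adjusted p = 0.0679), and in a fit to those 4 mice alone the adjusted p was 0.122. The 2-week call held without each of its 5 mice in turn. Among the marker lists, the 3 named erythroid markers, of interest because red cells carry Aqp1, differed by -0.49 to 0.45 between the arteries at 48 h in vehicle mice and by -1.61 to 1.02 at 2 weeks. Under atorvastatin they were at -2.18 to -1.63 in 4 of 5 mice at 2 weeks and at 1.63 in mouse 10, where Aqp1 was at -2.14. In that group 2 of the 3 were called lower, and their median difference was -1.10. In vehicle mouse 1 at 2 weeks the erythroid mean was 1.02 higher and Aqp1 was at -3.49, and in vehicle mouse 3 they were at -1.61 and -2.21. In vehicle mouse 2 at 2 weeks, where the smooth muscle list did not rise, Aqp1 was at -1.76, inside the range of the other vehicle mice. At 48 h the fibroblast list was at -1.54, -1.51 and -0.96 in vehicle mice 1, 3 and 5, beside Aqp1 at -2.01, -1.87 and -3.41. In vehicle mice 2 and 4 the list was at -0.28 and 0.34 and Aqp1 at -0.94 and -1.19. In atorvastatin mice 6 to 9 the list read -1.31, 0.38, 0.55 and -0.99, and Aqp1 -2.54, 0.07, -1.02 and -1.84. The part of red cells, smooth muscle or fibroblasts in the Aqp1 values was not tested.

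**Figure D2:**
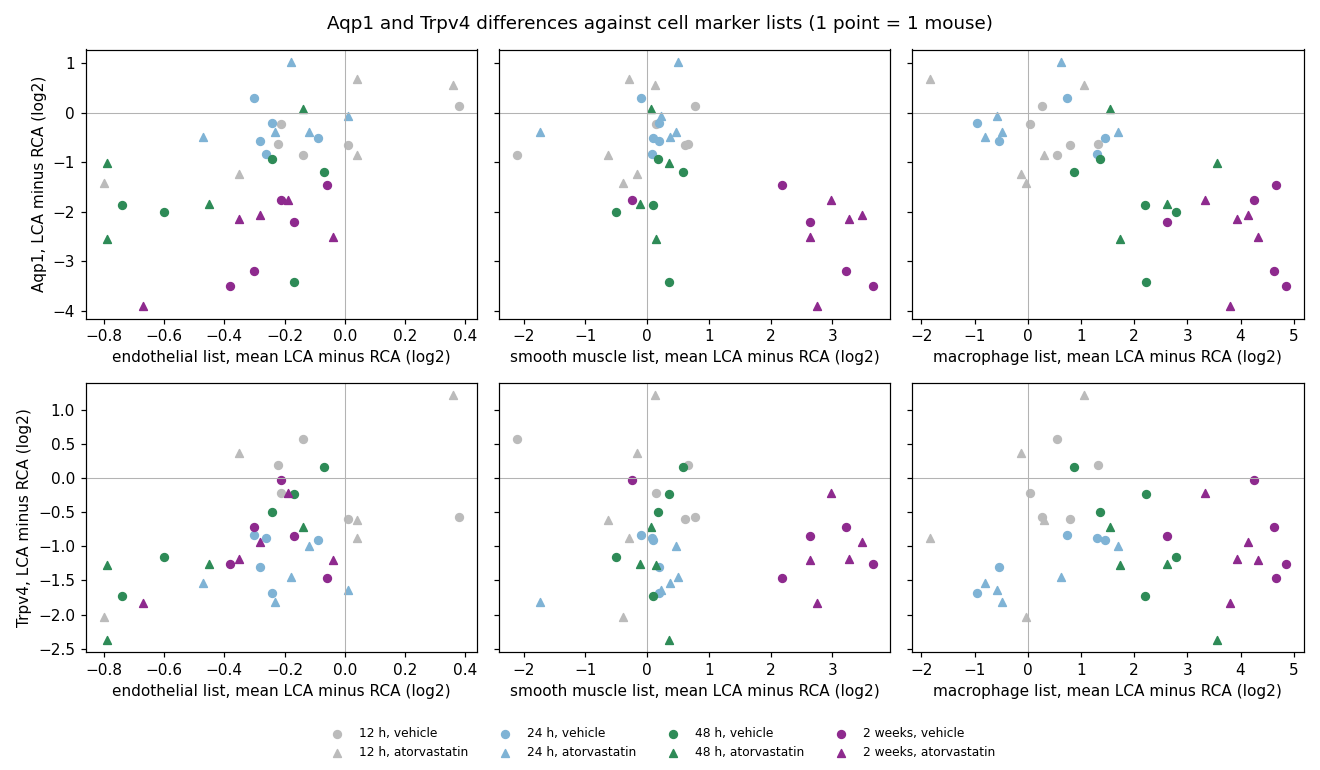
LCA minus RCA of Aqp1 (upper row) and Trpv4 (lower row) against the mean LCA minus RCA of the endothelial, smooth muscle and macrophage marker lists, all log2; 1 point is 1 mouse, coloured by time, circles vehicle and triangles atorvastatin. The 2-week mice stand at smooth muscle means of 2.18 to 3.65, apart from vehicle mouse 2 at -0.24, and at macrophage means of 2.61 to 4.85, and all of them lie below 0 for both genes.

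Pkd1, which encodes polycystin-1, was lower in the LCA at 48 h and 2 weeks. Vehicle LCA values at 48 h were 5.63, 5.24, 5.40, 5.81 and 5.45 in mice 1 to 5, against RCA values of 6.38, 6.82, 6.66, 6.31 and 6.63. Every LCA array was below every RCA array, and the same held at 2 weeks, with 6.29, 5.39, 5.80, 5.85 and 5.99 against 6.73, 6.70, 6.39, 6.58 and 6.64. At 24 h the arteries overlapped, with 6.44, 6.35, 7.0, 6.12 and 6.97 in the LCA and 6.77, 6.80, 6.69, 7.05 and 6.68 in the RCA. The difference was -0.44 ± 0.17 at 12 h (n = 5, adjusted p = 0.219 by limma), -0.22 ± 0.17 at 24 h (0.424), -1.06 ± 0.17 at 48 h (adjusted p = 1.76e-05) and -0.75 ± 0.17 at 2 weeks (adjusted p = 0.0011). The LCA level dropped by 1.07 ± 0.20 from 24 h to 48 h (adjusted p = 0.000436), while the RCA moved by -0.24 ± 0.16. The difference itself moved by -0.83 ± 0.24 over that step (adjusted p = 0.0113), and the calls at 48 h and 2 weeks and for both steps held without each mouse in turn. With the title number as a block the step in the difference was -0.58 (adjusted p = 0.0971). At 12 h all 5 vehicle and all 5 atorvastatin mice were lower in the LCA, and the atorvastatin difference was -0.49 ± 0.17 (adjusted p = 0.18 by limma). With the title number as a block both 12 h differences were called, at -0.60 with vehicle (adjusted p = 0.0433) and -0.83 with atorvastatin (adjusted p = 0.0145).

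Under atorvastatin, Pkd1 in the LCA at 48 h read 5.37, 5.85, 5.77 and 5.52 in mice 6 to 9 and in the RCA 6.51, 6.35, 6.43 and 6.52, again without overlap. At 2 weeks it was 5.92, 6.26, 5.90, 6.56 and 6.57 against 6.86, 6.25, 7.03, 6.79 and 6.87, and mouse 7 read 0.01. The difference was -0.83 ± 0.19 at 48 h (n = 4, adjusted p = 0.00136 by limma) and -0.52 ± 0.17 at 2 weeks (n = 5, adjusted p = 0.0209). Fitted to the mice of each group alone, adjusted p was 0.082 and 0.0633. The 2-week call was lost without mouse 6 (-0.41, adjusted p = 0.115) or mouse 8 (-0.37, adjusted p = 0.155). The LCA step from 24 h to 48 h was -0.74 ± 0.22 (adjusted p = 0.012), and -0.65 (adjusted p = 0.0557) without mouse 6 at 48 h. Over all times Pkd1 was lower on the ligated side in 36 of 39 mice. A further probe set annotated to both Tsc2 and Pkd1 was not used.

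Trpv4 was the only member called at 24 h. The vehicle LCA then read 5.81, 5.11, 5.04, 5.72 and 5.27 in mice 1 to 5, and the RCA 6.69, 5.93, 6.72, 6.62 and 6.56. Under atorvastatin the LCA read 5.0, 5.59, 5.27, 5.01 and 5.18 in mice 6 to 10 and the RCA 6.64, 6.59, 6.72, 6.83 and 6.71. All 10 mice were lower in the LCA, and the arteries did not overlap in either treatment. The difference was -1.12 ± 0.29 with vehicle (n = 5, adjusted p = 0.00933 by limma; -0.98 and 0.0613 without mouse 3) and -1.49 ± 0.29 with atorvastatin (n = 5, adjusted p = 7e-04).

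At 12 h Trpv4 had differed by -0.13 ± 0.29 and -0.39 ± 0.29, and the control artery also differed between these times. In vehicle mice the RCA went from 5.51 ± 0.54 (SD, n = 5) at 12 h to 6.51 ± 0.32 at 24 h, a step of 1.0 ± 0.31 (adjusted p = 0.022 by limma), while the LCA stood at 5.38 ± 0.35 and 5.39 ± 0.36, a step of 0.01 ± 0.28 (adjusted p = 0.998). The RCA step was not called without mouse 3 (0.83, adjusted p = 0.0812) or mouse 4 (0.96, adjusted p = 0.0584) at 12 h, nor without mouse 1 (0.95, adjusted p = 0.05) or mouse 3 (0.95, adjusted p = 0.054) at 24 h, nor with the title number as a block (0.86, adjusted p = 0.0613). Under atorvastatin the RCA step was 0.82 ± 0.31 (adjusted p = 0.182). The change in the difference itself was -0.99 ± 0.42 with vehicle and -1.10 ± 0.42 with atorvastatin (adjusted p = 0.38 and 0.56). Between the same times the endothelial marker mean of the vehicle RCA arrays went from 9.14 to 9.78 at 12 h to 9.80 to 9.96 at 24 h, and the adipocyte marker mean from 5.10 to 8.19 to 4.33 to 5.41. The Gapdh 3' minus 5' value of the same RCA arrays went from 4.74 ± 0.31 to 4.04 ± 0.24, and that of the LCA arrays from 4.82 ± 0.30 to 4.97 ± 0.47. The part of any of these in the Trpv4 level was not tested.

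At later times Trpv4 was called lower in the LCA in 3 of 4 groups. It lay above the array median on 74 of 78 arrays. Its lowest LCA values at these times, 4.08 and 4.42 with atorvastatin, were below the array medians of 4.59 to 4.77. With atorvastatin at 48 h the LCA values were 4.78, 5.66, 4.08 and 5.06 and the RCA values 6.06, 6.38, 6.45 and 6.33, a difference of -1.41 ± 0.33 (n = 4, adjusted p = 0.00138 by limma) that was called without each of the mice but not in a fit to those 4 mice alone (adjusted p = 0.0681). At 2 weeks it was -1.07 ± 0.29 (n = 5, adjusted p = 0.00488), with LCA values of 4.42 to 5.64 all below RCA values of 5.87 to 6.25. With vehicle at 48 h the LCA read 4.93, 5.15, 5.22, 5.91 and 4.60 and the RCA 6.08, 5.66, 6.95, 5.74 and 4.83, and the difference of -0.69 ± 0.29 was not called (adjusted p = 0.0645; 0.0425 after a further quantile normalization; -0.90 and 0.0242 without mouse 4). Mouse 4, in which the neutrophil list did not rise, was the only 1 of the 5 with Trpv4 higher in the LCA. Mouse 3, with the neutrophil list at 5.19, read -1.73 for Trpv4, and mouse 5, with the list at 5.08, read -0.23. The part of neutrophils in the Trpv4 values was not tested.

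At 2 weeks the vehicle difference was -0.86 ± 0.29 (n = 5, adjusted p = 0.0259 by limma). The LCA values were 4.73, 6.02, 4.96, 4.76 and 4.75 and the RCA values 5.99, 6.04, 5.81, 5.46 and 6.22. Mouse 2, in which the smooth muscle list did not rise, read -0.02 for Trpv4, and without it the difference was -1.07 (adjusted p = 0.0122). Leaving out any of the other 4 mice ended the call, with differences of -0.71 to -0.90 and adjusted p of 0.0513 to 0.124. Over all 39 mice Trpv4 was lower on the ligated side in 34. The part of smooth muscle in the Trpv4 values was not tested.

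**Figure D3:**
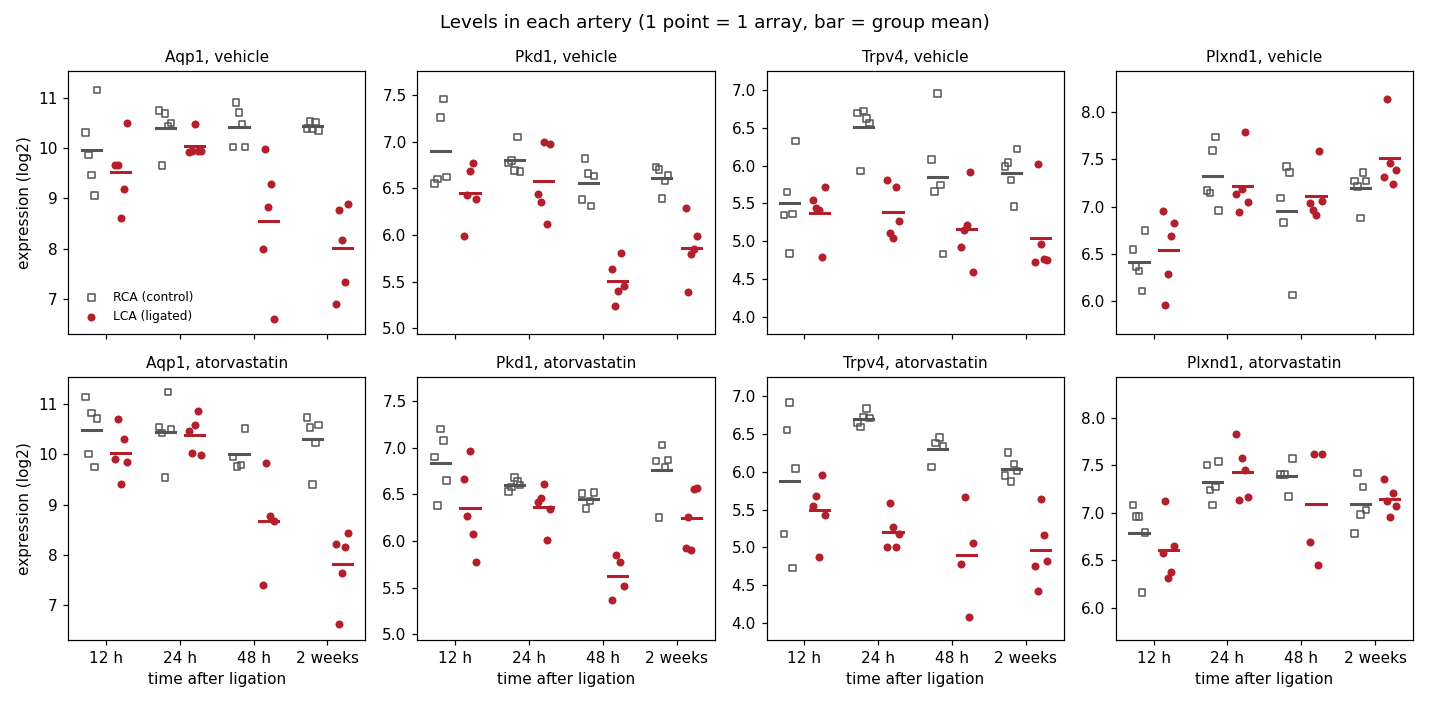
Log2 expression of Aqp1, Pkd1, Trpv4 and Plxnd1 in each artery by time, vehicle above and atorvastatin below; open squares are RCA arrays, filled circles LCA arrays and bars group means. Aqp1 and Pkd1 are first called lower in the LCA at 48 h in the main fit. Pkd1 is already lower in the LCA of all mice at 12 h, without a call in that fit. Trpv4 separates at 24 h with the RCA at 6.51 and 6.70, and in the vehicle RCA Plxnd1 is at 6.11 to 6.75 at 12 h and 6.96 to 7.73 at 24 h.

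P2rx4, the ATP-gated channel, moved little. At 48 h the vehicle LCA read 6.82, 7.60, 7.16, 7.71 and 7.06 and the RCA 7.67, 7.59, 7.59, 7.68 and 7.79, so that mice 1, 3 and 5 were lower and mice 2 and 4 level. The difference was -0.40 ± 0.15 (n = 5, adjusted p = 0.0342 by limma), a 1.31-fold lower level. It was not called without mouse 1 (-0.28, adjusted p = 0.209), mouse 3 (-0.39, adjusted p = 0.0871) or mouse 5 (-0.31, adjusted p = 0.17). With the mean of the gene's 3 probe sets in place of the chosen one it was -0.22 (adjusted p = 0.187), and adjusted p was 0.149 in a fit to those mice alone and 0.1 with the title number as a block. The other probe sets differed by -0.05 ± 0.51 and -0.23 ± 0.21 (SD, n = 5) at that time. Under atorvastatin the 48 h values split as well, with -0.80 and -0.83 in mice 6 and 9 and 0.02 and 0.13 in mice 7 and 8, and the mean of -0.37 ± 0.16 was not called (adjusted p = 0.0838; 0.0337 without mouse 7 and 0.0285 without mouse 8). The fibroblast list divided the same mice at 48 h. It was at -1.54, -1.51 and -0.96 in vehicle mice 1, 3 and 5 and at -0.28 and 0.34 in mice 2 and 4. With atorvastatin it was at -1.31 and -0.99 in mice 6 and 9 and at 0.38 and 0.55 in mice 7 and 8. The part of fibroblasts in the P2rx4 values was not tested.

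At 24 h P2rx4 had been higher in the LCA in 4 of 5 vehicle mice and 5 of 5 atorvastatin mice, by 0.23 ± 0.15 and 0.31 ± 0.15, neither of which was called (adjusted p = 0.323 and 0.174). With the title number as a block the atorvastatin difference was called, at 0.52 (adjusted p = 0.047). The step in the difference from 24 h to 48 h was therefore -0.62 ± 0.21 with vehicle (adjusted p = 0.0244 by limma) and -0.68 ± 0.22 with atorvastatin (adjusted p = 0.024). The first call was lost without mouse 1, 2 or 3 at 24 h or mouse 1, 3 or 5 at 48 h (adjusted p of 0.0506 to 0.0939), and with the title number as a block (-0.62, adjusted p = 0.0835). The second was lost without mouse 10 at 24 h or mouse 6 or 9 at 48 h (0.055 to 0.131). With the mean of the probe sets, adjusted p was 0.359 and 0.202. In the LCA itself P2rx4 dropped by 0.70 ± 0.16 (adjusted p = 0.00196; 0.0831 with the mean of the probe sets) and 0.59 ± 0.17 (adjusted p = 0.0128; 0.269 with that mean, and 0.0965 and 0.103 without mouse 6 or 9 at 48 h). With vehicle it rose again by 0.62 ± 0.16 from 48 h to 2 weeks (adjusted p = 0.0105; 0.1 with that mean, 0.243 with the title number as a block and 0.0592 without mouse 1 at 48 h).

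Piezo1, the force-gated channel, did not pass the test between the arteries at any time. Its arrays spanned 7.39 to 9.57 with a median of 7.99, and 20 of 39 mice were lower and 19 higher in the LCA. All 10 mice at 24 h were lower, with differences of -0.52, -0.23, -0.80, -0.28 and -0.81 in vehicle mice 1 to 5 and of -0.15, -0.66, -0.36, -0.17 and -0.76 in atorvastatin mice 6 to 10. The means of -0.53 ± 0.19 and -0.42 ± 0.19 had adjusted p of 0.0627 and 0.158 by limma, and the first became 0.0357 after a further quantile normalization and 0.0358 in a fit to those 5 mice alone. At 48 h the atorvastatin mice 6 to 9 read 0.58, -0.29, 1.72 and 0.14, a wide spread about 0.54 ± 0.22 (adjusted p = 0.0556; 0.00674 without mouse 7).

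The step in the Piezo1 difference from 24 h to 48 h was 0.96 ± 0.29 with atorvastatin (adjusted p = 0.0159 by limma). Without mouse 8 at 48 h, whose LCA array of 9.57 is the highest of all 78, it was 0.57 (adjusted p = 0.138). The rise lay in the LCA, at 0.84 ± 0.23 (adjusted p = 0.0075; 0.51 and 0.0715 without mouse 8). Mouse 8 also had the widest macrophage marker difference of the 48 h mice, 3.56, and the part of those cells in the Piezo1 value was not tested. With vehicle the step was 0.65 ± 0.27 (adjusted p = 0.0764; 0.83 and 0.0199 without mouse 4 at 48 h). At 2 weeks the difference was 0.21 ± 0.19 in each treatment and 4 of 5 mice in each were higher in the LCA.

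Plxnd1, the semaphorin receptor, was called over time and in no comparison between the arteries. Its LCA minus RCA difference ran from -0.29 ± 0.20 to 0.31 ± 0.18 over the 8 groups, with adjusted p of 0.211 to 0.884 by limma. In the vehicle RCA it read 6.55, 6.37, 6.32, 6.11 and 6.75 at 12 h and 7.17, 7.14, 7.59, 7.73 and 6.96 at 24 h, without overlap between the times. That step was 0.90 ± 0.19 (adjusted p = 0.00276), and it was called without each of the 10 mice in turn. Between these times the Gapdh 3' minus 5' value of the vehicle RCA arrays went from 4.74 ± 0.31 to 4.04 ± 0.24 and their endothelial marker mean from 9.14 to 9.78 to 9.80 to 9.96, and the part of either in the Plxnd1 level was not tested. The LCA step was 0.67 ± 0.22 (adjusted p = 0.253). Under atorvastatin the steps were 0.53 ± 0.19 in the RCA and 0.83 ± 0.22 in the LCA (adjusted p = 0.173 and 0.161). In the vehicle RCA, 2 of 6 members were called between 12 h and 24 h, Plxnd1 and Trpv4, against 18.1% of all genes; in the atorvastatin RCA none was, against 0.996%, with 3 members and 1805 genes at an unadjusted p below 0.05.

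Kcnj2 read 3.10 to 5.48 over the 78 arrays with a median of 3.73, where array medians lay between 4.59 and 4.77, so its values are near background. Fitted without the filter, its difference was -0.54 ± 0.20 at 24 h with vehicle (adjusted p = 0.0987 by limma over all named genes) and -0.40 ± 0.20 with atorvastatin (0.268), and it was between -0.37 and 0.17 at the other times.

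The order of the levels in the vehicle LCA differed between members. For Aqp1 it ran, from low to high, 2 weeks, 48 h, 12 h and 24 h, at 8.01 ± 0.88, 8.54 ± 1.30, 9.53 ± 0.69 and 10.05 ± 0.24 (SD, n = 5), and neighbours in that order lay within the larger SD of each pair. For Pkd1 it ran 48 h, 2 weeks, 12 h and 24 h, at 5.50 ± 0.22, 5.87 ± 0.32, 6.45 ± 0.31 and 6.58 ± 0.39. There 12 h and 24 h lay within their SD, and the step from 48 h to 2 weeks, 0.36 ± 0.20, was not called (adjusted p = 0.233 by limma). Trpv4 ran 2 weeks, 48 h, 12 h and 24 h, at 5.04 ± 0.55, 5.16 ± 0.48, 5.38 ± 0.35 and 5.39 ± 0.36, all neighbours within their SD.

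Across the 4 times, the LCA minus RCA difference changed (limma's F test) for 3 of 6 members with vehicle, against 32.9% of all genes, and for 2 of 6 with atorvastatin, against 33.5%. They were P2rx4 (adjusted p = 0.024), Pkd1 (0.0344) and Aqp1 (0.00198) with vehicle and Piezo1 (0.0427) and Aqp1 (0.00118) with atorvastatin. With the title number as a block, P2rx4 (adjusted p = 0.102) and Pkd1 (0.288) were not called with vehicle, and with atorvastatin Piezo1 was not (0.0664) while P2rx4 was (0.0293). P2rx4 was also lost with vehicle with the mean of its probe sets (0.724), and Piezo1 with atorvastatin without the filter (0.055). The vehicle count was 1 without mouse 3 or 5 at 48 h. The atorvastatin count was 4 without mouse 8 at 12 h and 1 without mouse 6 at 12 h, mouse 7, 8 or 10 at 24 h, mouse 6 at 48 h or mouse 6, 7, 8 or 10 at 2 weeks. Neighbouring times were then compared. From 24 h to 48 h, 3 of 6 members changed with vehicle (27.8% of all genes) and 2 of 6 with atorvastatin (24.1%). From 12 h to 24 h no member and none of all genes (0%) was called, though 1189 and 756 genes and 1 and 2 members had an unadjusted p below 0.05. From 48 h to 2 weeks no member was called, against 5.76% and 8.32% of all genes, and 1 member in each treatment had an unadjusted p below 0.05.

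Within the ligated artery alone, 4 of 6 members changed over time with vehicle (49.5% of all genes) and 5 of 6 with atorvastatin (42.5%). They were P2rx4, Pkd1, Aqp1 and Plxnd1, and under atorvastatin Piezo1 as well. With the title number as a block P2rx4 was not called with vehicle (adjusted p = 0.106), nor Piezo1 (0.0942) and Plxnd1 (0.173) with atorvastatin. With the mean of its probe sets P2rx4 was called in neither treatment (0.065 and 0.529), and under atorvastatin it was not after a further quantile normalization (0.0782), which added Piezo1 with vehicle (0.0266). The atorvastatin count was 3 without mouse 6 or 10 at 24 h or mouse 9 at 48 h and 2 without mouse 6 at 48 h. From 24 h to 48 h, 3 members in vehicle mice (31.7% of all genes) and 4 in atorvastatin mice (26.5%) changed in the LCA, and P2rx4 alone from 48 h to 2 weeks with vehicle (15.2%). In the control artery, Plxnd1 alone changed over time with vehicle (adjusted p = 0.00378; 26.8% of all genes), and none of the 6 with atorvastatin (5.88%), where 1 member and 2590 genes had an unadjusted p below 0.05. The vehicle count was 2 without mouse 2 or 5 at 12 h or mouse 3 or 5 at 48 h, and 3 without mouse 2 at 24 h.

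Atorvastatin mice were compared with vehicle mice in each artery and in the difference between arteries. No member was called, averaged over the 4 times, in the LCA (0% of all genes), the RCA (0.0176%) or the LCA minus RCA difference (0%). Nor was any at a single time, where the shares of all genes called were 0 in the LCA at each time, 0.0441, 0, 0 and 0.00882% in the RCA from 12 h to 2 weeks, and 0.00882, 0, 0 and 0.0176% in the difference. The unadjusted counts at single times were 309 to 577 genes in the LCA, 452 to 1274 in the RCA and 296 to 581 in the difference. At an unadjusted p below 0.05, the averaged comparison held 690 genes in the LCA, of which 1 was a member, 1227 in the RCA and 422 in the difference, with no member in either. The member was Piezo1, at 0.26 higher with atorvastatin in the LCA (95% interval 0.04 to 0.48).

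The intervals show what these numbers of mice leave undecided. The effect given is the signed LCA minus RCA difference in atorvastatin mice less that in vehicle mice. A negative effect means an LCA lower relative to the RCA with atorvastatin than with vehicle. Averaged over times, the effect was 0.20 for Aqp1 (95% interval -0.31 to 0.71), -0.39 for Trpv4 (-0.82 to 0.04), 0.10 for Pkd1 (-0.15 to 0.35), 0.26 for Piezo1 (-0.03 to 0.54), -0.20 for Plxnd1 (-0.46 to 0.06) and -0.10 for P2rx4 (-0.31 to 0.12). At single times the intervals were wider. For Aqp1 at 48 h the effect was 0.55 (95% interval -0.51 to 1.61), and at 2 weeks -0.06 (-1.06 to 0.95). For Trpv4 at 48 h it was -0.72 (-1.61 to 0.18). Trpv4 was called at 48 h with atorvastatin and not with vehicle, and this interval is the test of that difference.

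Genes that work with the members were taken as 8 companion lists, and values are given for vehicle first and atorvastatin second. Of all tested genes, 32.3% were called lower and 39.6% higher in at least 1 of the 8 comparisons between the arteries, and the counts of each list stand beside these shares. Of the potassium channels, 7 of 24 listed genes were tested, and 3 of the 7 were lower and 2 higher in at least 1 comparison. Kcnn4, the intermediate-conductance calcium-activated channel that hyperpolarizes endothelium downstream of calcium entry, was lower in all 8 comparisons, by -1.07 ± 0.19 at the least (vehicle, 24 h, adjusted p = 0.000196 by limma) and -2.23 ± 0.19 at the most (atorvastatin, 2 weeks, adjusted p = 2.75e-11). Its small-conductance relative Kcnn3 was at -2.17 ± 0.33 and -1.96 ± 0.37 at 48 h with vehicle and atorvastatin and at -2.09 ± 0.33 and -2.16 ± 0.33 at 2 weeks. Kcnq1, a voltage-gated channel, was lower at 2 weeks, at -1.52 ± 0.26 and -1.58 ± 0.26. Kcnmb1, a subunit of the large-conductance channel of smooth muscle, was higher at 2 weeks, at 1.83 ± 0.30 and 2.50 ± 0.30, the time at which the smooth muscle list was higher.

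Among 14 tested calcium channel genes, 7 were lower and 4 higher in at least 1 comparison. The store-operated calcium entry genes Orai1, which forms the pore, and Stim1 and Stim2, its activators, were lower at 2 weeks in both treatments. Orai1 was at -1.10 ± 0.17 and -1.16 ± 0.17, Stim1 at -0.94 ± 0.19 and -0.75 ± 0.19, and Stim2 at -0.78 ± 0.14 and -1.14 ± 0.14. Trpm4, a calcium-activated cation channel, was at -0.83 ± 0.22 and -1.03 ± 0.25 at 48 h. At 2 weeks 5 of the 14 were called lower and 3 higher in each treatment, beside 12.3% and 15.4% of all genes lower and 15.5% and 14.5% higher. The list's median difference at that time was -0.24 and -0.28, where that of all genes was -0.01 and -0.03.

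Of 7 tested purinergic genes, 5 were higher and 3 lower in at least 1 comparison. P2rx7, an ATP-gated channel of the family of P2rx4, was higher at 24 h by 0.78 ± 0.14 and 0.83 ± 0.14. P2ry13, an ADP receptor, was higher at 48 h by 1.97 ± 0.32 and 1.52 ± 0.36 and at 2 weeks by 2.56 ± 0.32 and 1.96 ± 0.32. Panx1, an ATP release channel, was higher at 48 h by 1.26 ± 0.30 and 0.92 ± 0.33. P2ry6, a UDP receptor, was lower at 12 h and 24 h with vehicle (-0.87 ± 0.24 and -0.78 ± 0.24) and higher at 2 weeks in both treatments (0.97 ± 0.24 and 0.76 ± 0.24). The macrophage list was also higher at 48 h and 2 weeks, and its part in these purinergic genes was not tested.

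**Figure D4:**
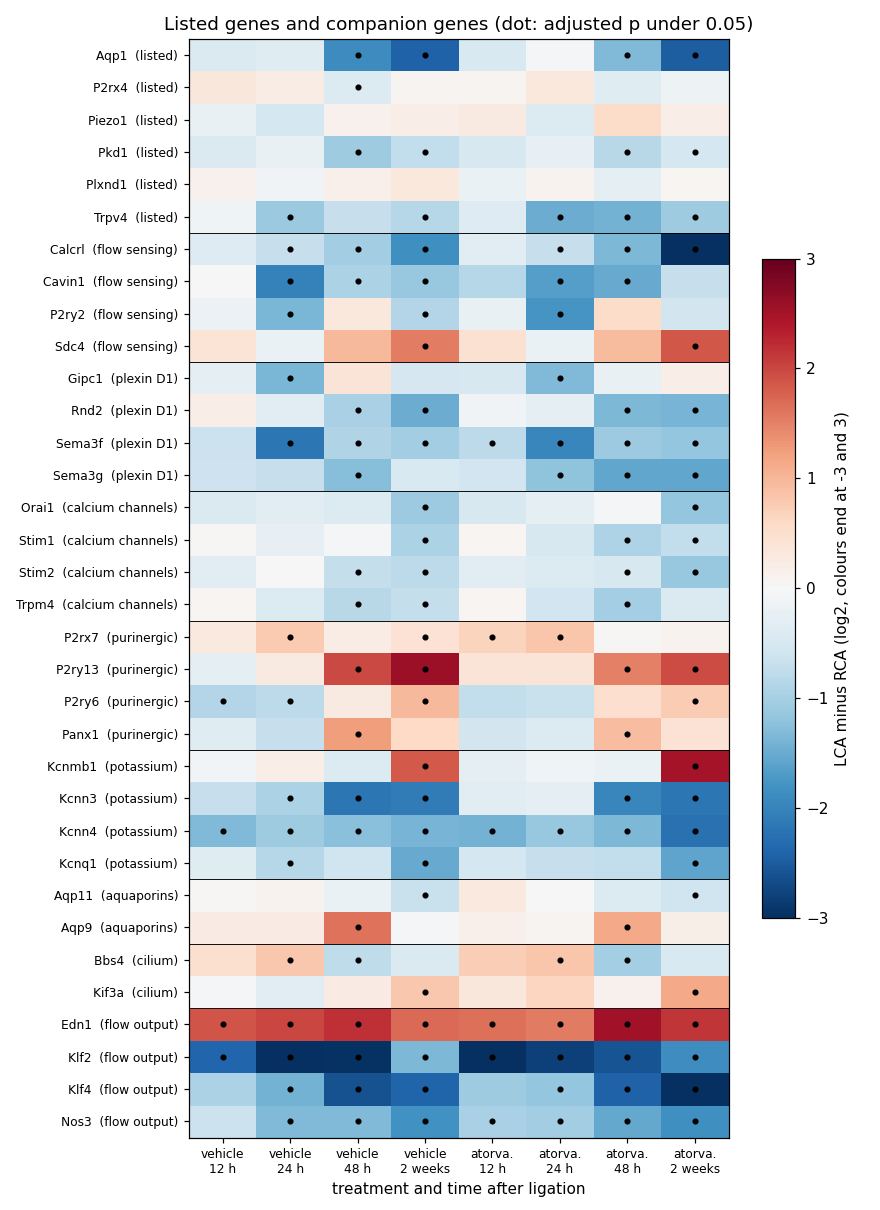
Mean LCA minus RCA difference (log2, blue lower and red higher in the LCA) for the 6 tested members and the named genes of the companion lists, by treatment and time; a dot marks an adjusted p below 0.05. Aqp1 and Kcnn3 share blue cells at 48 h and 2 weeks, Kcnn4 and Klf2 carry a dot in all 8 columns, and no member has a red cell with a dot.

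The flow-sensing list of receptors, junction and caveolar proteins had 23 tested genes, of which 15 were lower and 5 higher in at least 1 comparison. Calcrl, the receptor subunit for adrenomedullin, was at -1.04 ± 0.20 and -1.34 ± 0.23 at 48 h and at -1.84 ± 0.20 and -3.05 ± 0.20 at 2 weeks. Cavin1, a caveolar coat protein, was at -2.03 ± 0.33 and -1.66 ± 0.33 at 24 h, and P2ry2, an ATP and UTP receptor that signals through Gq and G11 proteins, at -1.38 ± 0.32 and -1.78 ± 0.32, the time at which Trpv4 was first lower. Sdc4, a heparan sulfate proteoglycan, was higher at 2 weeks by 1.54 ± 0.42 and 1.86 ± 0.42. At 24 h 7 of the 23 were lower and 1 higher with vehicle, and 9 and 1 with atorvastatin, beside 7.09% and 5.8% of all genes lower and 7.19% and 7.29% higher, and the median differences of -0.19 and -0.26 stood beside 0.03 and 0.02 for all genes.

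For the plexin list, 13 genes were tested, with 6 lower and 5 higher in at least 1 comparison. Sema3f, a secreted semaphorin, was at -2.16 ± 0.21 and -1.95 ± 0.21 at 24 h and was called lower in 7 of 8 comparisons. Sema3g, another, was at -1.28 ± 0.27 and -1.56 ± 0.30 at 48 h. Gipc1, an adaptor that binds plexin D1, was at -1.36 ± 0.33 and -1.32 ± 0.33 at 24 h. Rnd2, a small GTPase that binds plexin D1, was at -1.49 ± 0.30 and -1.39 ± 0.30 at 2 weeks. Plxnd1 itself was at 0.31 ± 0.18 and 0.05 ± 0.18 at that time.

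Of 12 tested cilium genes, 5 were lower and 4 higher in at least 1 comparison, and any single comparison held 0 to 2 of them in each direction. Bbs4, a subunit of the cilium transport complex BBSome, was higher at 24 h (0.80 ± 0.21 and 0.83 ± 0.21) and lower at 48 h (-0.77 ± 0.21 and -1.03 ± 0.24), when Pkd1 was at its lowest. Kif3a, a motor subunit of cilium assembly, was higher at 2 weeks by 0.81 ± 0.26 and 1.14 ± 0.26. Of 6 tested other aquaporins, Aqp9, which also passes glycerol, was higher at 48 h (1.62 ± 0.31 and 1.14 ± 0.34), opposite to Aqp1, and stood at -0.03 and 0.18 at 2 weeks. All 5 neutrophil markers were called higher at 48 h in both treatments, with medians of 3.71 and 3.42, and their part in the Aqp9 value was not tested. Aqp11 was lower at 2 weeks (-0.67 ± 0.22 and -0.59 ± 0.22). Of the 5 flow-responsive output genes, Klf2 was lower in all 8 comparisons, at -2.39 ± 0.20 and -3.04 ± 0.20 already at 12 h, when no member was called. Klf4 was at -2.61 ± 0.33 and -2.43 ± 0.37 at 48 h and Nos3 at -1.32 ± 0.19 and -1.54 ± 0.21, while Edn1, which encodes the vasoconstrictor endothelin-1, was higher in all 8 comparisons by 1.57 to 2.51.

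The genes whose LCA minus RCA difference was most like that of each member were found by Pearson's r over the 39 mice, which share time and treatment groups, so that r describes likeness only. For Aqp1 they were Gria3 (r = 0.90) and Cyp4b1 (0.88). P2rx4 was most like Hacd4 (0.86) and H2-T23 (0.85), and Piezo1 most like Tnfrsf10b (0.81) and Slc25a25 (0.79). Plxnd1 was nearest to Fam219aos (0.72) and the endothelial transcription factor Sox18 (0.71), and Trpv4 to the endothelial adhesion molecule Icam2 (0.70) and Kdsr (0.67). Pkd1 was nearest to Serpini1 (0.70) and AW549877 (0.69). Kcnj2 reached 0.50 with Srp54b and 0.48 with Mthfs, the lowest of the 7.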

How the data were processed

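The arrays measured RNA flushed from the LCA and RCA of 39 mice (78 arrays, 45118 probe sets). The authors deposited log2 values processed with RMA, per the submitters' processing notes, and these were used as they stand; values ran from 1.79 to 13.235 and array medians from 4.59 to 4.77. RMA had already made array distributions alike, so a shift common to most genes cannot be seen. Of the probe sets, 28898 had 1 gene symbol, 551 several and 15588 none, with 81 controls left out; names come from the platform annotation. Each gene was read from its 1-symbol probe set with the highest mean, and genes above the array median on at least 4 arrays were tested.

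LCA minus RCA per mouse was fitted with limma 3.58.1 in R 4.3.3 over 8 groups of mice, with the LCA and RCA levels in fits of their own, and p was adjusted by Benjamini-Hochberg over all genes tested, with a threshold of 0.05. Both arteries of a number come from the same mouse, per the labels, so the main fit is paired; the correlation of their deviations from the group means ran from -0.34 to 0.51 (median 0.09) and was above 0.1 in 19 of 39 mice. The labels mention batches without assigning samples to them. Array number, not depth, limits the precision. Alternatives were the probe set rule, the filter, a further quantile normalization, a trended robust prior, the title number as a block, no pairing, a fit to 1 group and leaving out each mouse.

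The members and lists were chosen with earlier results of these data known. Named genes are all members, up to 4 genes of each companion list called with the same sign in both treatments, ordered by their largest mean difference, the 2 genes most like each member, and Klf2, Klf4 and Nos3. Fitting was tested on simulated data.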

Additional observations from a re-analysis of the deposited data

Results flagged for a closer look

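Of 168 sets of values (7 members in each artery and in the difference, by group), 15 held 1 mouse far from the others, where chance flags about 1 in 20. Piezo1 read 7.47 in the vehicle RCA at 48 h (mouse 5; the others 8.05 to 8.18). Trpv4 read 5.93 in the vehicle RCA at 24 h (mouse 2; the others 6.56 to 6.72) and 6.02 in the vehicle LCA at 2 weeks (mouse 2; the others 4.73 to 4.96). P2rx4 read 8.14 in the vehicle LCA at 12 h (mouse 4; the others 7.60 to 7.65) and 7.91 in the atorvastatin RCA at 48 h (mouse 7; the others 7.75 to 7.76). Kcnj2 read 3.10 in the vehicle RCA at 12 h (mouse 1; the others 3.52 to 3.60) and 3.26 in the vehicle LCA at 2 weeks (mouse 4; the others 3.84 to 3.90). Kcnj2 read 4.79 in the atorvastatin LCA at 24 h (mouse 9; the others 3.31 to 3.66) and 5.38 in the atorvastatin RCA at 24 h (mouse 9; the others 3.64 to 4.06). Aqp1 read 10.48 in the vehicle LCA at 24 h (mouse 3; the others 9.92 to 9.95) and 9.66 in the vehicle RCA at 24 h (mouse 2; the others 10.44 to 10.75). Aqp1 read 1.03 in the atorvastatin LCA minus RCA difference at 24 h (mouse 8; the others -0.49 to -0.07). Plxnd1 read 7.79 in the vehicle LCA at 24 h (mouse 4; the others 6.94 to 7.18) and 7.59 in the vehicle LCA at 48 h (mouse 4; the others 6.91 to 7.06). Plxnd1 read 8.13 in the vehicle LCA at 2 weeks (mouse 2; the others 7.24 to 7.46). The change of the LCA minus RCA difference from 24 h to 48 h was called by limma for 5 member and treatment pairs. With vehicle it was -1.52 for Aqp1, -0.62 for P2rx4 and -0.83 for Pkd1, and with atorvastatin -0.68 for P2rx4 and 0.96 for Piezo1. Kcnj2 values are near background.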

How the results depend on the processing

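Of 14 member calls between the arteries, 9 held under all 8 settings tried, 9 without each mouse in turn, and 7 under both; 5 further differences were called under a setting and 3 without a mouse. No member difference changed direction with a call. Without the mouse as a replicate block, the counts of members called were 0, 1, 3 and 3 with vehicle and 0, 1, 3 and 3 with atorvastatin, so leaving out the pairing changed no count. With the title number as a fixed block, 1 member was called at 12 h with vehicle and 1 with atorvastatin (Pkd1 in both), 2 at 24 h with atorvastatin (Trpv4 and P2rx4), 1 changed over time in the vehicle difference and 3 in the atorvastatin LCA. A further quantile normalization gave 2 members at 24 h with vehicle and 2 over time in the vehicle RCA. A fit to the mice of 1 group gave 2 at 24 h with vehicle and 0 at 48 h with atorvastatin. Without the filter, 1 member changed over time in the atorvastatin difference, and with the filter at 39 arrays 2 did in the vehicle RCA. The cause of these shifts was not tested. Leaving out 1 mouse gave 0 to 1 members at 24 h with vehicle and 2 to 5 at 48 h with atorvastatin. Over time it gave 1 to 4 in the difference with vehicle and 1 to 4 with atorvastatin, 2 to 5 in the atorvastatin LCA and 1 to 3 in the vehicle RCA. The alternatives for single steps between times were chosen after seeing the data. The number of mice, 4 or 5 a group, limits the precision, and Kcnj2 lay near background.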
